A study of Mus musculus with 12 samples.

Results

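The 31 genes described here encode lysosomal enzymes, lysosomal membrane proteins and autophagy adaptors. They were taken by symbol from the count table of a mouse Leydig cell line, which lists 26214 gene symbols, and all 31 were found in it. After a filter on low counts 24 of them could be tested, among 2614 tested genes in all. The cells were mLTC-1, an immortalized line of the androgen-producing cells of the testis, grown in medium with fetal bovine serum. One group of 6 libraries came from cells given the DMSO vehicle for 24 h (control), and the other 6 from cells given 100 µM MSNBA, a benzodioxol amine with a methylsulfonyl-nitrophenyl group, for 24 h. According to the series, this compound inhibits Glut5, which carries fructose into cells. All libraries are of 1 cell line, and no label says that replicates came from different cultures, so p-values reflect no more than library-to-library spread, which may be technical.

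Lysosomes are acidic vesicles in which proteases, glycosidases and lipases break down material delivered by endocytosis or by autophagy. In autophagy, a membrane studded with proteins of the LC3 and GABARAP family closes around cytoplasm and then fuses with a lysosome. In steroid-making cells the lysosome also releases cholesterol from lipoproteins taken up from outside, and NPC1 and NPC2 hand that cholesterol on to the rest of the cell. Many genes of the system are switched on by the transcription factor TFEB.

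Promoter sequences of RefSeq (GRCm38.p6, the mm10 assembly, 250 bases before to 50 after each listed start site) were matched for 27 of the 31 genes. Ctsb, Asah1, Npc1 and Map1lc3a had no entry. They were searched on both strands for the E-box CACGTG, for TCACGTGA, which holds it, and for the full site that TFEB is known to bind, which is TCACGTGA with G before it and C after it. All of these read the same on both strands, and each longer motif contains the shorter ones. The windows below show the E-box in capitals, 5′ to 3′ on the strand of the gene, in the promoters of a membrane protein, a pair of cathepsins, a lysosomal channel and a glycosidase, because the measured levels of such genes are the subject of what follows.
Lamp1, chr8:13159095-13159165, plus strand: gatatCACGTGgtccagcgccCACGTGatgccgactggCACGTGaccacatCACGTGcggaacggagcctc
Ctsd, chr7:142387898-142387946, minus strand: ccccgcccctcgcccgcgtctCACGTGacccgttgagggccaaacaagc
Ctsa, chr2:164833740-164833799, plus strand: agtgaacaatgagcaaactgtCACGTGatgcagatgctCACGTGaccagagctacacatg
Mcoln1, chr8:3500428-3500501, plus strand: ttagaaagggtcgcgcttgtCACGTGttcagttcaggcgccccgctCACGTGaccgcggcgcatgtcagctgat
Glb1, chr9:114401010-114401056, plus strand: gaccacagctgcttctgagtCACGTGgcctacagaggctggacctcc
The Lamp1 window holds 4 copies of the E-box in 71 bases that end just past the listed start site. The Ctsa window is that of a start site listed inside the gene, at 164833773, whereas the gene itself begins at 164832872.

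The E-box was present in promoters of 7 of the 27 matched genes (25.9%), namely Ctsl, Ctsd, Ctsa, Gaa, Glb1, Lamp1 and Mcoln1. It was present in 14.2% of the 2158 tested genes with a promoter entry and in 8.09% of all 27025 genes with one. The 8 letters TCACGTGA were found in 3 genes (11.1%), Ctsd, Ctsa and Mcoln1, against 2.92% of tested genes and 1.12% of all genes. The full site was found in 0 of the 27, against 1.25% of tested genes and 0.370% of all genes. Among 92 further lysosomal and autophagy genes with an entry, the E-box was present in 25 (27.2%). The Ctsl match with its flanks, at 64370731 to 64370770 on the minus strand of chromosome 13, lay inside the gene, which begins at 64370772. A match describes the letters only.

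Total counts ran from 59113 to 234225 in control libraries and from 94179 to 657251 in MSNBA libraries. The mean total was 113273 in controls and 266381 in MSNBA, and the ranges overlap. The 31 genes together took 1.01% to 1.25% of counts in controls and 1.12% to 1.27% in MSNBA libraries. For a tested gene of the set, the total over the 12 libraries ran from 159 counts (Scarb2) to 6073 counts (Ctsl). Leydig cell markers were all 7 detected, with a summed level of 7490 to 10905 CPM (the usual count scaled by library size, here by full library totals) in controls and 7569 to 9388 CPM in MSNBA. Of 10 macrophage markers, from a cell type rich in lysosomes, Cd14 and Fcgr1 were at 0 counts in every library and the summed level was 0 to 37.6 CPM in controls and 8.76 to 16.7 CPM in MSNBA. The 6 Sertoli cell markers, Sox9, Amh and Fshr among them, summed to 0 to 27.5 CPM in controls and 0 to 53.1 CPM in MSNBA. The 7 fibroblast and peritubular markers summed to 51.2 to 156 CPM in controls and 22.8 to 127 CPM in MSNBA, the 4 endothelial markers to 0 to 50.8 and 0 to 12.2 CPM, and the 4 germ cell markers to 12.5 to 50.8 and 6.64 to 38.5 CPM. In bulk RNA of this kind, fewer cells expressing a gene and less RNA per cell cannot be told apart.

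The comparison of MSNBA with control asks whether the lysosomal and autophagy genes of these cells differ after a day with the compound. None of the 24 tested genes passed an adjusted p of 0.05 by the quasi-likelihood test of edgeR, where 2 of 2614 genes (0.0765%) did. At an unadjusted p under 0.05, 1 of the 24 was higher, the cholesterol transfer gene Npc2, where 4.17% of all tested genes were higher. None of the 24 was lower at that level, where 4.78% of all tested genes were, or 8.95% in either direction. Over the 24 genes the log2 fold change had a median of 0.055, with 13 values above 0 and 11 below, and that of all tested genes was -0.0082, with 48.5% above 0. Every one of the 24 intervals of the fold change at 95% lay between 0.577-fold and 1.83-fold, and 16 of the 24 lay within 1.5-fold in both directions. The upper limit is that of Scarb2, whose interval is narrower than its edgeR unadjusted p of 0.231 implies. Control and MSNBA libraries overlapped for all 24 genes, where the groups were apart for 0.65% of all tested genes. At an adjusted p of 0.05, limma-voom called 0 of the 24, and DESeq2 called 0 of the 14 for which it gave an adjusted p. At an unadjusted p under 0.05 limma-voom had 2 of the 24, Npc2 higher and Ctsa lower, where 259 of 2614 genes were in either direction. DESeq2, which gave an unadjusted p for all 31, had 1 (Npc2, higher), where 394 of 19572 genes were in either direction.

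**Figure D1:**
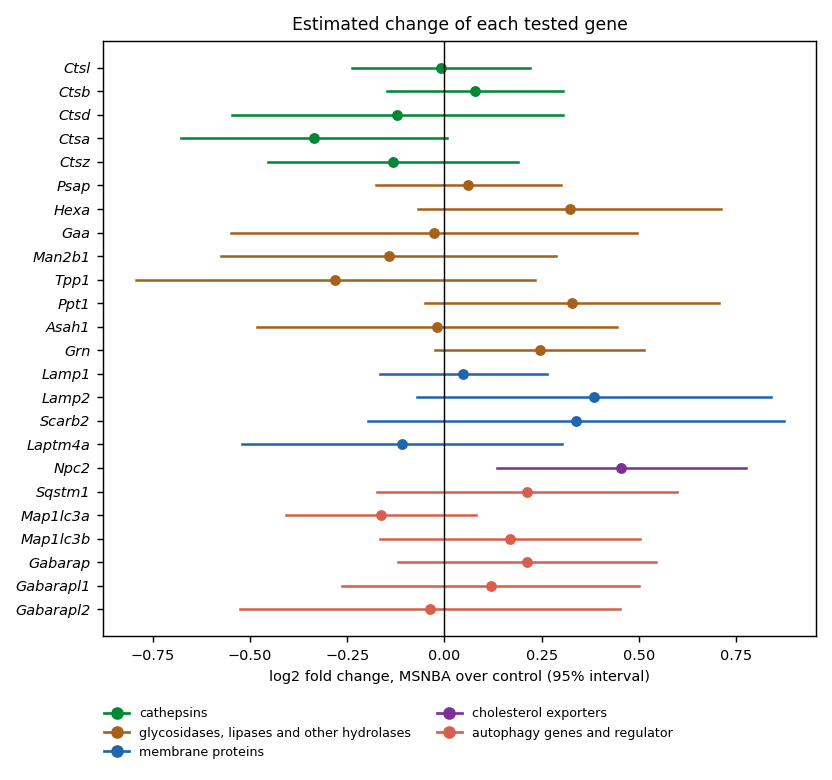
Estimated log2 fold change of each tested gene, MSNBA over control (horizontal axis), with its 95% interval as a line and colours for the roles of the genes. The interval of Npc2, from 1.10-fold to 1.71-fold, is the one that lies to the right of 0, and that of Ctsa ends at 1.00-fold.

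Npc2, which binds cholesterol inside the lysosome and passes it to NPC1, had 241 to 434 normalized CPM in controls (median 317) and 380 to 567 in MSNBA (median 461). These values are CPM of the tested genes only, scaled to a common library size. Of the 6 MSNBA libraries, 4 lay above every control and all 6 lay above the control median, while control 1 at 434 lay above MSNBA 2 at 380 and MSNBA 5 at 406. The means were 324 ± 64.6 and 461 ± 66.1 CPM (SD, n = 6 per group). The estimate on the log2 scale was 0.45 (SE 0.16, edgeR unadjusted p = 0.00648, adjusted p = 0.318), which does not pass over all genes. Npc2 lies on chromosome 12 from 84754559 to 84773112. With library depth as a covariate the value was 0.38 (adjusted p = 0.550).

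Npc1, which encodes the membrane partner that receives cholesterol from NPC2, was too sparse to be tested. All controls together held 9 counts of it and all MSNBA libraries 29, or 13.2 CPM (95% exact Poisson interval 6.06 to 25.1) and 18.1 CPM (12.2 to 26.1) of full totals. These intervals leave out the spread between libraries, and no test of Npc1 is given. Lipa, the acid lipase that frees cholesterol from its esters, had 9 and 20 counts, or 13.2 CPM (6.06 to 25.1) and 12.5 CPM (7.64 to 19.3). Intervals of pooled counts cover counting error only.

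The cathepsins, the proteases of the lysosome, were all 5 tested and 0 passed. Ctsl, a cysteine protease, measured 2283 to 3943 CPM in controls (median 3323) and 2575 to 3649 CPM in MSNBA (median 3213). The MSNBA libraries all lay inside the control range. The means were 3163 ± 632 and 3151 ± 421 CPM, the log2 fold change was -0.0089 (SE 0.11, edgeR adjusted p = 0.994), with 95% limits of 0.848-fold and 1.16-fold. For Ctsb, another cysteine protease, controls ran from 1466 to 2058 CPM (median 1764) and MSNBA from 1409 to 2249 CPM (median 1878), a log2 fold change of 0.078 (SE 0.11, edgeR adjusted p = 0.876). Its MSNBA range covered the whole control range.

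Ctsa, a carboxypeptidase that also protects lysosomal glycosidases, had 234 to 397 CPM in controls (median 308) and 210 to 283 CPM in MSNBA (median 257). All 6 MSNBA libraries lay below the control median and 2 below every control. On the log2 scale the change was -0.34 (SE 0.17, edgeR unadjusted p = 0.0546, adjusted p = 0.555). Ctsz, a carboxypeptidase with a log2 fold change of -0.13 (SE 0.16), and Ctsd, the main aspartic protease, with -0.12 (SE 0.20), did not pass either.

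Ctsd and Ctsl went apart between libraries of the same group. The share of Ctsd in the summed counts of Ctsd and Ctsl was 40.5% in control 2 (95% exact binomial interval 34.1 to 47.1) and 32.5% in control 4 (26.5 to 38.9). It was 32.6% in MSNBA 4 (27.2 to 38.4) and 32.4% in MSNBA 6 (28.4 to 36.5). In the other 8 libraries it ran from 14.5% in control 6 to 22.8% in control 5. Both groups thus hold libraries with a high and a low share, and the ranges of the groups overlap. The group means were 25.4% ± 9.40 in controls and 23.5% ± 7.01 in MSNBA (SD, n = 6 per group). In normalized CPM, Ctsd was at 1555, 1219, 1247 and 1312 in those 4 libraries and at 669 to 975 in the rest, whereas Ctsl was at 2283, 2533, 2575 and 2743, below the 3181 to 3943 of the rest. The 4 libraries were picked out after their values were seen, and no test was made between them and the others. Their totals were 77030, 79770, 94179 and 172131 counts. Controls 3 and 5 had totals of 83983 and 59113 counts and shares of 21.5% and 22.8%. The part of depth in the shares was not tested. The stress gene Ddit3 measured 2879, 1571, 1599 and 2371 CPM in the 4 libraries and 546 to 1538 CPM in the other 8, and its part in the cathepsin shares was not tested.

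**Figure D2:**
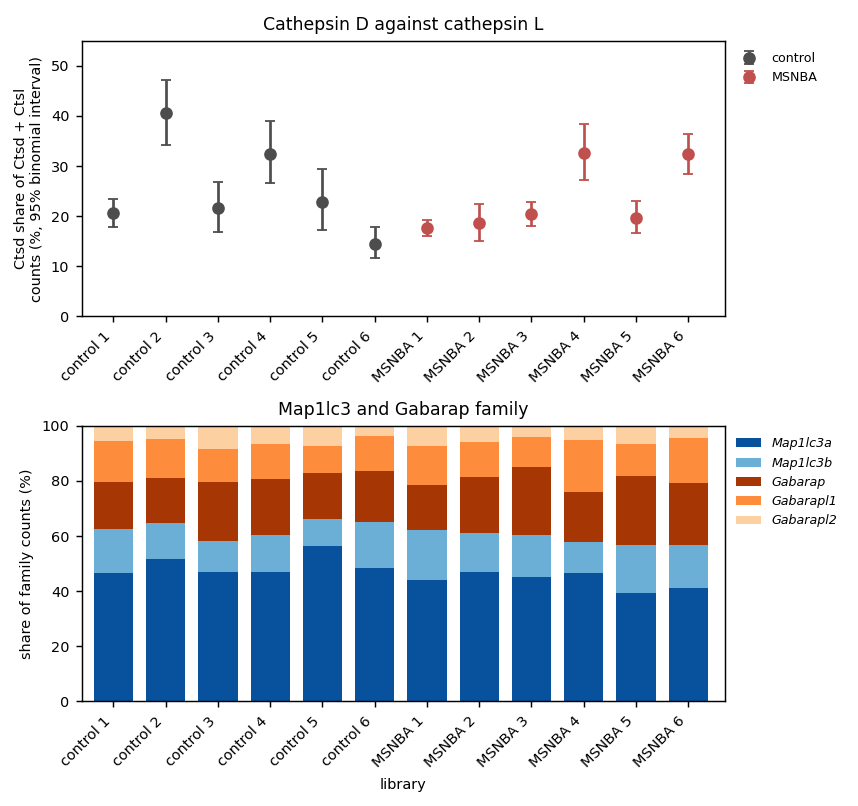
Upper panel: share of Ctsd in the summed counts of Ctsd and Ctsl (vertical axis, percent) in each library, with the 95% exact binomial interval of counting error. Controls 2 and 4 and MSNBA 4 and 6 lie at 32.4% or above and the other 8 libraries at 22.8% or below. Lower panel: share of each of 5 LC3 and GABARAP family genes in their summed counts (percent) in each library, with Map1lc3a between 39.3% and 56.4%.

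Of the hydrolases and their helper proteins, 8 of 11 were tested and 0 passed, with 4 values above 0 and 4 below. Psap, the precursor of the saposins that help enzymes reach their lipids, measured 811 to 1252 CPM in controls (median 1043) and 949 to 1281 CPM in MSNBA (median 1069). The groups overlapped over most of their range, and the interval of the fold ran from 0.885 to 1.23. Hexa, a subunit of the hexosaminidase that degrades gangliosides, ran from 99.3 to 283 CPM in controls (median 177) and from 220 to 266 CPM in MSNBA (median 237). All 6 MSNBA libraries lay above the control median but none above the highest control, control 6. The log2 fold change of Hexa was 0.32 (SE 0.19, edgeR adjusted p = 0.617), and it was 0.50 without control 6 and 0.13 without controls 2 and 4. The fit without controls 2 and 4, which have a high share of Ctsd, kept MSNBA 4 and 6, which have it too.

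Ppt1, a thioesterase that removes fatty acids from proteins, had 99.3 to 234 CPM in controls (median 189) and 186 to 250 CPM in MSNBA (median 229). Control 2 was the low library. MSNBA over control gave a log2 value of 0.33 (SE 0.19, edgeR adjusted p = 0.589). Tpp1, a peptidase, had 74.0 to 232 CPM in controls (median 125) and 59.1 to 117 CPM in MSNBA (median 102), with control 2 as the highest. Its log2 fold change was -0.28 (SE 0.25, edgeR adjusted p = 0.775). It was -0.093 without control 2 and -0.53 without control 1 (edgeR unadjusted p = 0.0497, adjusted p = 0.426). Grn, which encodes progranulin, a precursor of lysosomal granulins, measured 779 ± 169 CPM in controls and 934 ± 158 in MSNBA (SD, n = 6 per group), with all 6 MSNBA libraries above the control median. Progranulin mRNA had a log2 fold change of 0.24 (SE 0.13, edgeR unadjusted p = 0.0734, adjusted p = 0.586).

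The other tested genes of this role, the glycosidases Gaa and Man2b1 and the ceramidase Asah1, had log2 fold changes of -0.027 (SE 0.26), -0.14 (SE 0.21) and -0.018 (SE 0.23). All of these values changed sign in at least 1 of the fits that left out 1 library. The glycosidase genes Glb1 and Gusb were below the filter. Glb1 had 28 and 75 counts, or 41.2 CPM (27.4 to 59.5) in controls and 46.9 CPM (36.9 to 58.8) in MSNBA, and Gusb had 33 and 86 counts, or 48.6 CPM (33.4 to 68.2) and 53.8 CPM (43.0 to 66.5). For both genes the counting intervals of the groups overlap.

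Among membrane proteins 4 of 6 were tested and 0 passed, with 3 values above 0 and 1 below. Lamp1, a heavily glycosylated protein of the lysosomal limiting membrane, varied little between libraries, from 1037 to 1312 CPM in controls (median 1117) and from 1095 to 1233 CPM in MSNBA (median 1176). Its log2 fold change was 0.049 (SE 0.11, edgeR adjusted p = 0.921), with 95% limits of 0.891-fold and 1.20-fold. Lamp2, its relative, had 31.2 to 199 CPM in controls (median 144) and 151 to 186 CPM in MSNBA (median 170). The low value was control 3, with 2 counts. The log2 fold change of Lamp2 was 0.38 (SE 0.23, edgeR adjusted p = 0.603), and it was 0.23 without that library.

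Scarb2, which encodes a receptor that carries glucocerebrosidase to lysosomes, had 33.1 to 96.2 CPM in controls (median 74.0) and 75.9 to 136 CPM in MSNBA (median 97.1). As for Npc2, 4 of the 6 MSNBA libraries lay above every control and all 6 above the control median. The log2 fold change of Scarb2 was 0.34 (SE 0.27, edgeR unadjusted p = 0.231, adjusted p = 0.743). Laptm4a, a small transmembrane protein gene, had a log2 fold change of -0.11 (SE 0.20). Mcoln1, the gene of a lysosomal calcium channel, had 13 and 49 counts, or 19.1 CPM (10.2 to 32.7) in controls and 30.7 CPM (22.7 to 40.5) in MSNBA. Cd63, a tetraspanin gene, had 17 and 28 counts, or 25.0 CPM (14.6 to 40.0) and 17.5 CPM (11.6 to 25.3). Control 1 had 0 counts of Cd63 among 234225. A processed pseudogene, Cd63-ps, matches the Cd63 transcript over 717 bases at 90% identity or more, and its part in the low counts of Cd63 was not tested.

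**Figure D3:**
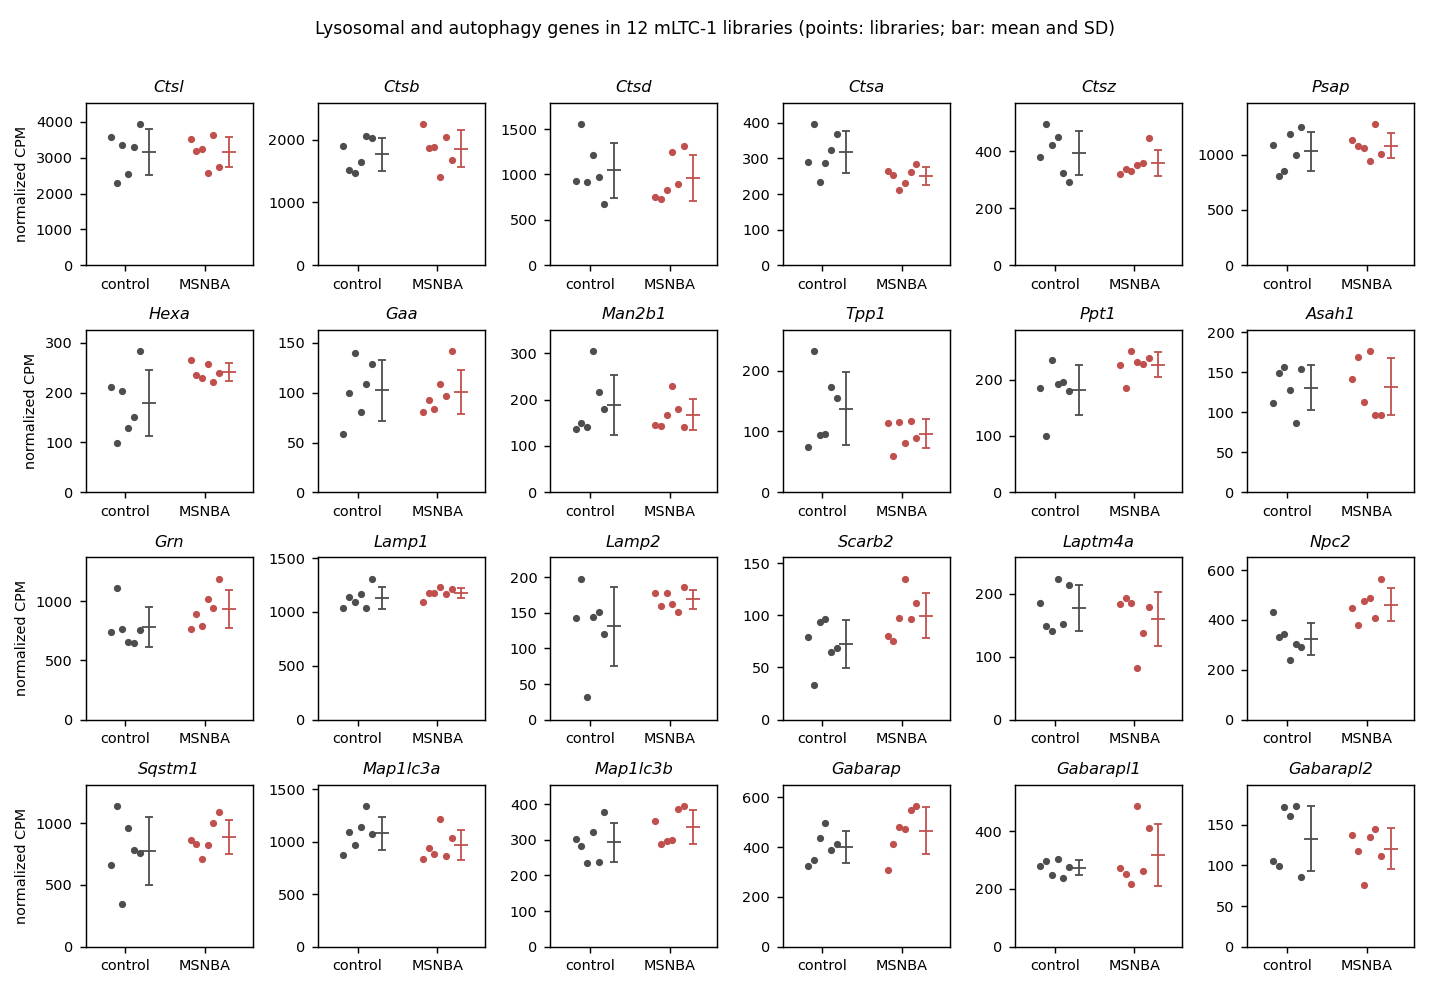
Normalized CPM (vertical axes, linear and starting at 0) of the 24 tested genes in each of 6 control and 6 MSNBA libraries, one panel per gene. Points are libraries and the bars beside them are the mean and SD. The panels show overlapping groups throughout, with Npc2 at 241 to 434 in controls and 380 to 567 in MSNBA.

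Of the autophagy genes 6 of 7 were tested and 0 passed. The LC3 and GABARAP proteins are coupled to lipid on the growing autophagosome. Map1lc3a, an LC3 gene, measured 878 to 1343 CPM in controls (median 1082) and 840 to 1220 CPM in MSNBA (median 913). Of the MSNBA libraries, 2 lay below every control and 1 above the control median. Its log2 fold change was -0.16 (SE 0.12, edgeR adjusted p = 0.703). Map1lc3b, the LC3 gene whose protein is the usual autophagosome marker, ran from 234 to 377 CPM in controls (median 291) and from 287 to 395 CPM in MSNBA (median 325), a log2 fold change of 0.17 (SE 0.17, edgeR adjusted p = 0.791).

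Gabarap measured 323 to 497 CPM in controls (median 401) and 310 to 567 CPM in MSNBA (median 478), with a log2 fold change of 0.21 (SE 0.16, edgeR adjusted p = 0.717). MSNBA 1 was the lowest of all 12 libraries, and 2 MSNBA libraries were above every control. The value of Gabarap was 0.35 without MSNBA 1 (edgeR unadjusted p = 0.0357, adjusted p = 0.538), 0.12 without control 1, and 0.46 with library depth as a covariate (unadjusted p = 0.0110, adjusted p = 0.467). Gabarapl1 was even among controls, at 238 to 305 CPM (median 277), and uneven in MSNBA, at 218 to 488 CPM (median 267). MSNBA 4 and MSNBA 6 were its high libraries, at 488 and 410 CPM, and the log2 fold change was 0.12 (SE 0.19, edgeR adjusted p = 0.896), or 0.0048 without MSNBA 4. Gabarapl2 had 85.7 to 173 CPM in controls (median 133) and 76.2 to 145 CPM in MSNBA (median 127), with a log2 fold change of -0.037 (SE 0.24) whose sign turned with 1 library left out. The transcript of Gabarapl2 matches 6 processed pseudogenes at 90% identity or more over 314 to 353 bases. The count table lists none of these pseudogenes, and how reads common to them and Gabarapl2 were treated was not tested.

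Within a library, Map1lc3a held 49.4% ± 3.86 of the family's counts in controls and 43.8% ± 3.06 in MSNBA, and Gabarap held 18.4% ± 2.11 and 21.2% ± 3.53 (SD, n = 6 per group). Map1lc3b held 13.5% ± 2.65 and 15.4% ± 2.48. These are shares of counts and do not depend on the scaling between libraries. The Map1lc3a share ran from 46.5% to 56.4% in controls and from 39.3% to 46.9% in MSNBA, so that the groups overlap at their edges, and the shares were not tested.

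Sqstm1 encodes p62, an adaptor that ties ubiquitinated cargo to LC3. It ran from 343 to 1142 CPM in controls (median 771) and from 711 to 1088 CPM in MSNBA (median 851). Control 3 was the low library and control 2 the high one. The log2 fold change was 0.21 (SE 0.18, edgeR adjusted p = 0.765), it was 0.067 without control 3 and 0.46 without controls 2 and 4 (adjusted p = 0.292). Tfeb itself had 5 counts in controls and 9 in MSNBA, or 7.36 CPM (2.39 to 17.2) and 5.63 CPM (2.57 to 10.7), with a count in 6 of the 12 libraries. No test of Tfeb is given.

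**Figure D4:**
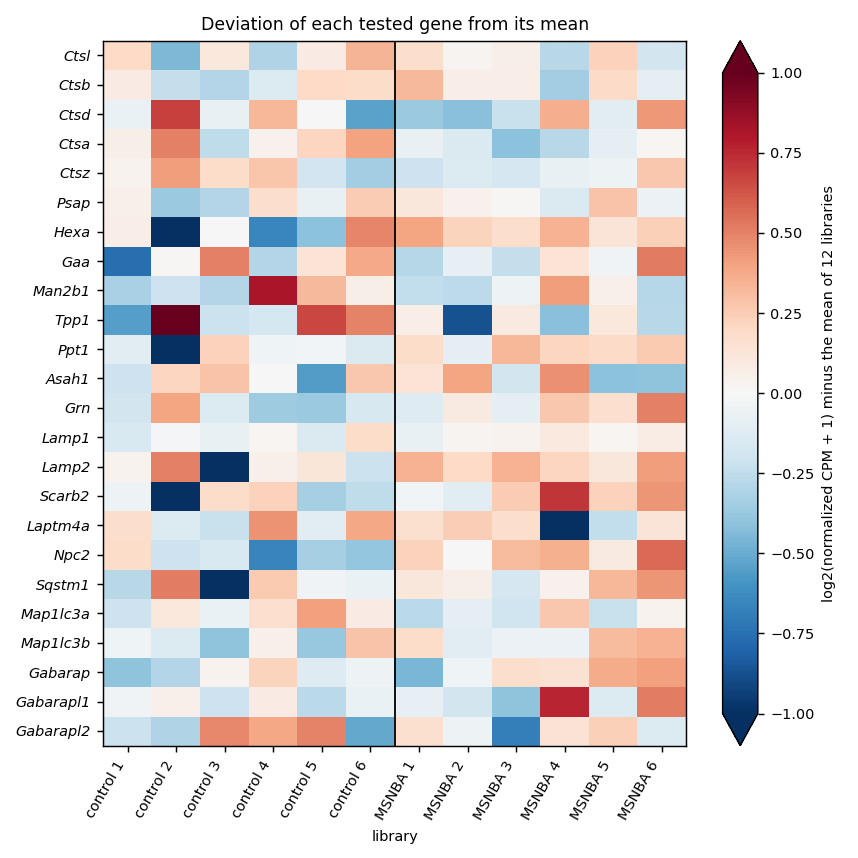
Deviation of each tested gene (rows, in the order of their roles) from its mean over the 12 libraries (columns), in log2(normalized CPM + 1), red for higher and blue for lower (deeper deviations than the ends of the colour scale take the end colour), with a line between control and MSNBA libraries. In controls 2 and 4 and in MSNBA 4 and 6, Ctsd is above its mean and Ctsl below. In the other libraries Ctsl is above its mean and Ctsd is below or near its own. Lamp1 stays pale in all libraries.

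A wider list of 115 lysosomal and autophagy genes in the table, none of them among the 31, was read from the same test. Of these 27 were tested, 0 passed, and at an unadjusted p under 0.05 the edgeR test had 0 higher, where 4.17% of all tested genes were, and 1 lower, where 4.78% were. That gene was Tsc2, which restrains the mTORC1 kinase at the lysosome, at 201 CPM in controls and 120 CPM in MSNBA (log2 fold change -0.61, SE 0.25, unadjusted p = 0.0178, adjusted p = 0.401), or -0.30 without controls 2 and 4. The median log2 fold change of the 27 was 0.11, with 19 values above 0 and 8 below, where 48.5% of all tested genes were above 0. It was 0.15 for the 9 tested hydrolases, 0.23 for the 6 genes of membrane proteins and enzyme delivery, -0.0077 for 6 genes of the autophagy machinery and 0.020 for 6 regulators of lysosomal signalling.

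Whether counting used strand is not stated. In the GENCODE annotation of the same assembly, 11 of the 31 genes, 10 of them tested, share exon bases with a gene on the opposite strand that the table also lists. Reads from such bases cannot be assigned to one gene without strand. Each overlap is given as the longest stretch shared by a single exon of each gene, and the total shared may be longer. The longest of these overlaps was that of Ctsb, 774 bases with Fdft1, and over the 12 libraries the table held 3571 counts for Ctsb against 1184 for Fdft1. Ppt1 shares 129 bases with Cap1, with 394 counts against 198. Sqstm1 shares 580 bases with Mrnip, with 1521 counts against 96, and Ctsa shares 324 bases with Neurl2, with 496 counts against 14. Levels of these genes are uncertain for that reason. Glb1 shares 165 bases with Tmppe (115 counts) on the same strand, where strand cannot separate them. On the same strand, Ctsd shares 227 bases with Gm49369, a protein-coding gene, and Ctsl shares 395 bases with Gm49230, a pseudogene. The table lists neither of them. At 90% identity or more, the Ctsl transcript also matches Ppm1k (3849 counts) over 210 bases and Nup98 (350 counts) over 201 bases. How reads from such bases were counted was not tested.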

How the data were processed

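The authors deposited raw counts by gene symbol in 1 table of 12 library columns. BWA 0.7.4.4 and mm10 are named in the submitters' processing notes. The table's name carries the terms RefSeq and UMI (molecular identifier). For the counter, the annotation's release and the use of strand, the entry is: not given in the sources used here. Columns were matched to samples by library name and groups taken from titles.

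Counts were filtered by filterByExpr, scaled by TMM and tested with the robust quasi-likelihood F test of edgeR 4.0.16 in R 4.3.3, with an intercept and treatment, on all 12 libraries. All tests were two-sided, with Benjamini-Hochberg adjustment over 2614 genes, which hold 79.2% of counts. The standard error is the log2 fold change over the square root of F. Normalized CPM are over the tested genes. Alternatives used limma 3.58.1, DESeq2 1.42.0, other scaling and filters, depth, a replicate block and libraries left out. Controls 2 and 4, the controls with a high share of Ctsd, were also left out together. MSNBA 4 and 6, with a like share, were kept, so that fit was unbalanced.

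The genes, the wider list and the tests were chosen with earlier results of these data known. Given in full were Ctsl, Npc2, genes at an unadjusted p under 0.05, the LC3 and GABARAP family, the 5 highest in CPM and the 6 largest remaining changes. Ctsd, Sqstm1, Grn and Ddit3 were added after their values were seen. Same-numbered libraries correlated above 0.1 in 3 of 6 pairs, so that the numbers were not taken as pairs.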

Additional observations from a re-analysis of the deposited data

Results flagged for a closer look

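Among 68 sets of 6 libraries checked for a library that lies apart (the 24 tested genes and 10 shares or ratios, in each group), 2 held one, where chance gives about 1 in 20. Control 2 had 1108 CPM of Grn, against 764 CPM in the library nearest to it. Ctsz measured 447 CPM in MSNBA 6, and the next MSNBA library was at 358 CPM. Without control 2 the log2 fold change of Grn was 0.35 (edgeR unadjusted p = 0.00893, adjusted p = 0.332), against 0.24 with all libraries.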

How the results depend on the processing

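Under 21 alternatives 0 genes of the set with an adjusted p passed the threshold in either direction. Such genes numbered 31 without the low-count filter, 17 with the stricter filter, 14 with DESeq2 and 24 in the other settings. Npc2 kept its direction, from 0.37 without controls 2 and 4 to 0.60 without control 1 (adjusted p from 0.126 to 0.550). Of 25 genes followed, which are the 24 tested genes of the set and Tsc2, 14 kept their direction in every setting that tested them. Over all genes, the count lower, 2 in the reported test, was 4 with DESeq2, 0 with limma-voom, 7 without the low-count filter, 1 with the stricter filter and 0 with depth as a covariate. The count higher, 0 in the reported test, was 2 with DESeq2, 8 without the filter and 4 without controls 2 and 4. With 1 library left out, the count lower ran from 0 (without control 4, 5 or 6 or MSNBA 1, 2, 3, 5 or 6) to 5 (without control 1), and the count higher from 0 to 1.

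Among the 31 genes, those higher at an unadjusted p under 0.05, 1 in the reported test, were 7 without the filter, 3 with depth and 4 without controls 2 and 4. In those settings 31, 24 and 24 genes of the set were tested and none was lower at that level. Of all genes, 1363 of 19576, 232 of 2614 and 281 of 3076 were at that level in either direction. Those lower, 0 in the reported test, were 1 with limma-voom and 1 with the stricter filter, where 259 of 2614 and 155 of 1319 genes were at that level in either direction. With 1 library left out they ran from 1 to 4 (without control 2) higher and from 0 to 2 (without control 1) lower. The 4 without control 2 were Grn, Lamp2, Npc2 and Sqstm1, among 253 of 2785 genes at that level, and those lower without control 1 were Ctsa and Tpp1, among 312 of 2668. The median of the tested genes of the set was 0.20 without the filter, where the 2614 genes together went from -0.0082 to 0.14. It ran from 0.030 to 0.11 with 1 library left out, and the cause was not tested.

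Signs turned for 11 genes, none of which passed. Without the filter the values were 0.13 for Ctsl, 0.032 for Ctsd, 0.015 for Ctsz, 0.12 for Gaa, 0.0022 for Man2b1, 0.13 for Asah1, 0.033 for Laptm4a and 0.10 for Gabarapl2, each at or below the shift of all genes. For Ctsl they were also 0.0094 with DESeq2 and 0.0076 with limma-voom. With depth in the model they were -0.092 for Ctsb, 0.14 for Ctsd, -0.023 for Psap, 0.28 for Gaa, 0.069 for Man2b1, 0.0046 for Asah1, 0.030 for Map1lc3a and 0.054 for Gabarapl2. Without controls 2 and 4 they were 0.12 for Ctsd, 0.0064 for Man2b1 and 0.015 for Asah1. The cause was not tested. With the replicate block they were 0.042 for Gaa and 0.0099 for Asah1, the value of Npc2 was 0.46 (adjusted p = 0.249), and the block changed no call among the 24 tested genes. With 1 library left out, values ran from -0.085 to 0.063 for Ctsl, -0.24 to 0.019 for Ctsd, -0.28 to 0.11 for Gaa, -0.28 to 0.020 for Man2b1, -0.12 to 0.050 for Asah1 and -0.16 to 0.10 for Gabarapl2.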
